A study of Homo sapiens with 54 samples.

Results

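The 9 genes described here, SLC7A11, GCLC, GCLM, NQO1, HMOX1, TXNRD1, SRXN1, ME1 and OSGIN1, belong to the antioxidant and glutathione programme switched on by the transcription factor NRF2. They were taken from the table by gene symbol and are 9 of the 27470 genes in the table of read counts. Each was followed through all 18 conditions of the study, with 3 libraries per condition and 54 libraries in all. All 9 passed the filter on low values and were tested in every comparison.

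The libraries come from 2 triple-negative breast cancer cell lines, MDA-MB-468 with wild-type BRCA1 and SUM1315 with mutant BRCA1. Each line was used as the parental line and as OlaR, a derivative selected for resistance to olaparib, an inhibitor of PARP enzymes. The treatments ask how cisplatin (CDDP), alone or with olaparib, acts on gene expression in cells before and after they acquire that resistance. Each read marks the 3′ end of a transcript, so a value compares 1 gene between conditions and not 1 gene with another.

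Parental MDA-MB-468 cells were untreated, given 3 µM olaparib, given CDDP at 1 or 2.5 µM, or given olaparib together with either CDDP dose, overnight. The higher of these CDDP doses is 2.5 µM in the sample labels, used here, and 2 µM in the series description. Parental SUM1315 cells received the same 6 treatments at 8 µM olaparib and at 2 or 4 µM CDDP. The OlaR cells were held in olaparib, at 15 µM for MDA-MB-468 and 25 µM for SUM1315, and were left without CDDP or given the lower or the higher CDDP dose of their line. OlaR cells were compared with olaparib-treated parental cells. These differ in olaparib dose and in length of exposure as well as in resistance, and the 3 cannot be told apart.

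Sequencing depth, counted as reads recovered from the table, ran from 4977284 to 7540920 in parental SUM1315 and from 3446613 to 4665505 in its OlaR libraries. It ran from 5574767 to 9268162 in parental MDA-MB-468 and from 2070301 to 4676284 in its OlaR libraries. All OlaR libraries were thus shallower than every parental library of the same line, and the part of depth in the OlaR results was not tested beyond the count tests named with them. Marker genes tell the lines apart. The 5 epithelial markers summed to 19180 adjusted reads in untreated MDA-MB-468 and 386 in untreated SUM1315, and the 4 mesenchymal markers to 65.1 and 15010. Untreated MDA-MB-468 had 13880 mean adjusted reads of the epithelial keratin KRT19 and 35.3 of the mesenchymal VIM, while untreated SUM1315 had no reads of KRT19 and 11980 of VIM. ESR1, PGR and ERBB2, the receptor genes of breast cancer, summed to 95.6 in MDA-MB-468 and 35.9 in SUM1315. Fewer cells cannot be told apart from less RNA per cell, since the values come from bulk RNA.

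NRF2, made by the gene NFE2L2, is held down by KEAP1, which feeds it to the proteasome until oxidants or electrophiles modify KEAP1. Freed NRF2 binds short antioxidant response elements beside its target genes, where the repressor BACH1 competes with it. The targets import cystine, build glutathione, keep thioredoxin reduced and clear quinones and heme, and glutathione also binds and inactivates cisplatin. SLC7A11 answers to a further factor, ATF4, which is made when amino acids run short or the endoplasmic reticulum is stressed.

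Values below are adjusted read counts, which edgeR scaled to a common library size. Differences were tested with limma on log2(value + 1), over all genes of a line together, and each limma adjusted p is a Benjamini-Hochberg value over the 13133 genes tested in SUM1315, the 13012 tested in MDA-MB-468 or the 14460 tested in both lines at once. A gene is said to be called where that value is at most 0.05, and only called genes are said to rise or fall. The p-values rest on the spread between libraries of the same condition, pooled over all conditions of a line or of both lines. That spread may be technical, as the labels do not say that the 3 libraries of a condition were separate cultures.

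**Figure D1:**
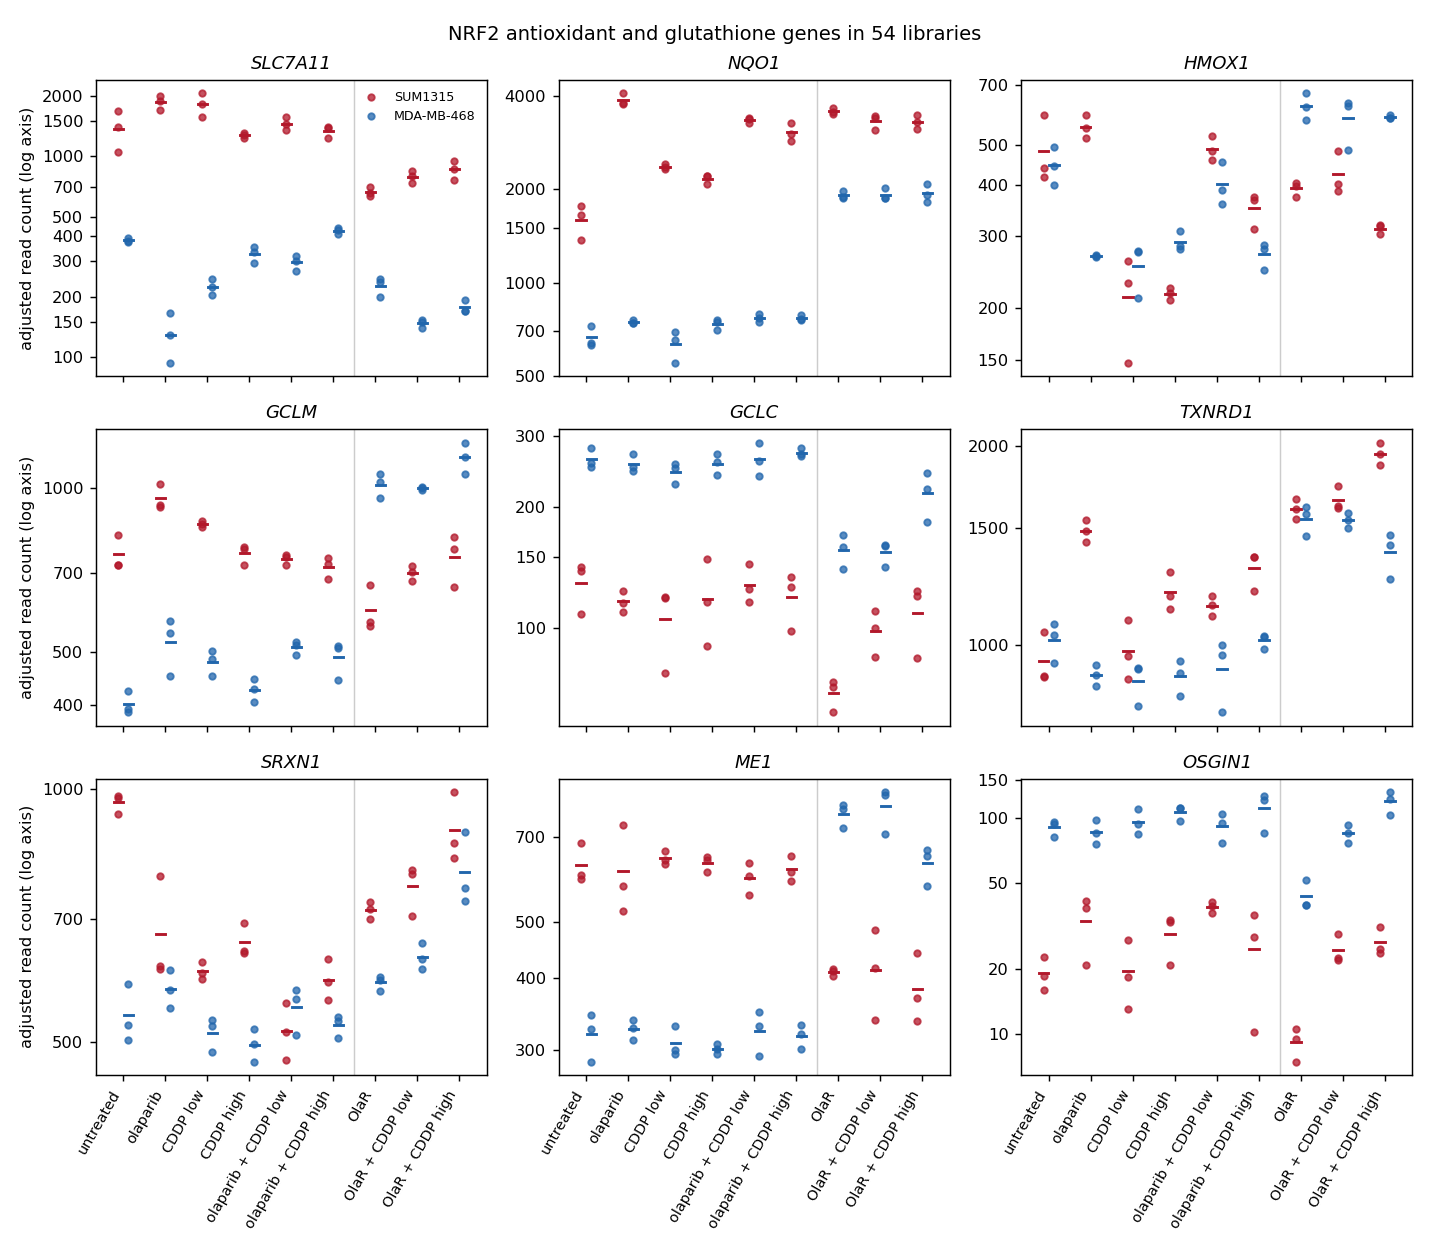
Adjusted read counts of the 9 genes (log axis) in each of the 54 libraries, by condition and line, with points for libraries and bars for the mean of 3. NQO1 lies between 1822 and 2074 in the 9 OlaR libraries of MDA-MB-468 and between 551 and 790.1 in its 18 parental libraries.

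The comparison of OlaR with olaparib-treated parental cells asks what differs once cells tolerate olaparib. In MDA-MB-468, 6 of the 9 genes rose in OlaR and 2 fell, where 51.5% of the 13012 tested genes were called, 23.6% higher and 27.9% lower, and the median log2 fold change of the 9 was 0.84 beside −0.03 for all genes. In SUM1315, 0 of the 9 rose by limma, 0 by edgeR and 0 by DESeq2, and 6 fell, where 47.2% of the 13133 tested genes were called, 21.6% higher and 25.7% lower, with medians of −0.56 and −0.05. At an unadjusted p under 0.05, 6 of the 9 passed in SUM1315. All 9 results of each line kept their side of the threshold in edgeR and DESeq2 tests of the recovered reads, without the filter, with a replicate block, in fits of the compared libraries alone and with any 1 library left out.

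Levels of cell-state markers in OlaR are set here against untreated cells, without a test. In MDA-MB-468 the 5 basal markers summed to 3417 untreated and 6534 in OlaR, KRT5 going from 259 to 3588 and EGFR from 2842 to 1895, and the epithelial markers to 19180 and 21370. The receptor genes summed to 95.6 and 227, ESR1 going from 63.4 to 216, ERBB2 from 32.1 to 11.3 and PGR having no reads in either. The mesenchymal markers summed to 65.1 and 74.7, with VIM at 35.3 and 18.6 and FN1 at 28.8 and 53.3. In SUM1315 the basal markers summed to 2518 and 4144, KRT17 going from 1534 to 3597, EGFR from 955 to 495 and KRT14 from 28.2 to 22. Its mesenchymal markers summed to 15010 and 11960, with VIM at 11980 and 9186, FN1 at 2000 and 2430, ZEB1 at 466 and 137 and CDH2 at 570.5 and 208. Its epithelial markers summed to 386 and 390, with KRT8 at 30.7 and 80.8 and KRT18 at 354 and 308. Its receptor genes summed to 35.9 and 58.1, with ERBB2 at 22.5 and 54.2 and ESR1 at 11.4 and 3.85. The 7 markers of other cell types summed to 959 and 251 in SUM1315, with COL1A1 at 739 and 162, and to 70.6 and 38.3 in MDA-MB-468. The part of these shifts in the OlaR results was not tested.

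The first group of genes supplies glutathione. SLC7A11 (chr4:138164097-138242349, minus strand, GRCh38) encodes the transporter that exchanges glutamate for cystine at the cell surface. In MDA-MB-468 it stood at 165, 93.7 and 129 adjusted reads in the olaparib-treated parental libraries and at 236, 246 and 199.7 in OlaR. In SUM1315 the values were 1877, 2005 and 1704 with olaparib and 638, 655 and 699.9 in OlaR. OlaR libraries lay above all olaparib-treated ones in MDA-MB-468 and below all of them in SUM1315. The log2 fold change was 0.84 ± 0.12 (SE, limma adjusted p 8.02e-08) in MDA-MB-468. It was −1.48 ± 0.12 (SE, limma adjusted p 5.35e-12) in SUM1315. The rise in MDA-MB-468 started from a group that olaparib had lowered, and the 3 untreated libraries held 379, 374 and 390.5, more than any OlaR library. In SUM1315 the untreated libraries held 1395, 1679 and 1046, again above all 3 of OlaR.

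GCLC (chr6:53497341-53616970, minus strand) and GCLM (chr1:93885199-93909456, minus strand) encode the catalytic and the modifier subunit of glutamate-cysteine ligase, which makes the first bond of glutathione. GCLM stood at 542, 571 and 453 in olaparib-treated MDA-MB-468 and at 1065, 1027 and 958 in OlaR. GCLC stood at 252, 246 and 272 and then at 140.4, 159 and 170.4. The subunits moved apart, GCLM up and GCLC down, with no overlap of libraries for either. The log2 fold change was 0.97 ± 0.08 (SE, limma adjusted p 2.51e-15) for GCLM and −0.71 ± 0.11 (SE, limma adjusted p 2.12e-07) for GCLC. In SUM1315 both were lower in OlaR. GCLM went from 932, 1020 and 926 to 559, 569 and 663, and GCLC from 110.1, 124 and 116 to 61.8, 73.7 and 71.5. Neither gene's libraries overlapped, and the log2 fold changes were −0.69 ± 0.09 (SE, limma adjusted p 2.07e-07) and −0.75 ± 0.20 (SE, limma adjusted p 0.00261).

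The next pair detoxifies quinones and heme. NQO1 (chr16:69706996-69726668, minus strand) reduces quinones by 2 electrons, and HMOX1 (chr22:35380361-35394214, plus strand) opens the heme ring and frees its iron. NQO1 stood at 755, 741 and 739.8 in olaparib-treated MDA-MB-468 and at 1886, 1975 and 1877 in OlaR. HMOX1 stood at 267, 269 and 268 with olaparib and at 620.2, 576 and 669.8 in OlaR. Each OlaR library held over 2 times the values seen with olaparib. Olaparib had itself lowered HMOX1, from 495, 446 and 400.1 in untreated cells. The log2 fold changes were 1.36 ± 0.07 (SE, limma adjusted p 4.65e-23) for NQO1 and 1.21 ± 0.10 (SE, limma adjusted p 8.99e-15) for HMOX1. SUM1315 had high NQO1 in both states, at 3769, 4077 and 3780 with olaparib and 3661, 3507 and 3556 in OlaR. The log2 fold change of −0.12 was not called, while HMOX1 fell from 592, 550.4 and 522 to 398, 404 and 375, a log2 fold change of −0.50 ± 0.15 (SE, limma adjusted p 0.00553). The untreated SUM1315 libraries held NQO1 at 1655, 1761 and 1373, below every OlaR library.

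The third group serves thioredoxin and NADPH. TXNRD1 (chr12:104215779-104350307, plus strand) reduces thioredoxin, SRXN1 (chr20:646615-653200, minus strand) repairs overoxidised peroxiredoxins and ME1 (chr6:83210402-83431051, minus strand) makes NADPH from malate in the cytosol. In MDA-MB-468, TXNRD1 stood at 932, 901 and 866 with olaparib and 1614, 1574 and 1460 in OlaR. ME1 stood at 328, 313 and 338 with olaparib and, in OlaR, at 723, 783 and 793. Both were higher in every OlaR library, with log2 fold changes of 0.78 ± 0.07 (SE, limma adjusted p 2.46e-13) and 1.23 ± 0.09 (SE, limma adjusted p 2.81e-17). SRXN1 held 548, 577 and 608 with olaparib and 597, 593 and 575 in OlaR, overlapping ranges with a log2 fold change of 0.03 that was not called. In SUM1315, ME1 went from 576, 521 and 732 to 404, 411 and 415, with no overlap and a log2 fold change of −0.56 ± 0.12 (SE, limma adjusted p 2.78e-04). TXNRD1 and SRXN1 were not called there, at log2 fold changes of 0.11 and 0.11. TXNRD1 held 1430 to 1545 with olaparib and 1550 to 1659 in OlaR, above all untreated libraries, at 894 to 1046. SRXN1 held 611 to 787 with olaparib and 700 to 734 in OlaR, below all untreated libraries, at 934 to 980.

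OSGIN1 (chr16:83931311-83966332, plus strand), named for its induction by oxidative stress and its brake on growth, was lower in OlaR of both lines. It stood at 85.5, 97.5 and 75.9 in olaparib-treated MDA-MB-468 and 39.7, 39.6 and 51.6 in OlaR, with no overlap and a log2 fold change of −0.97 ± 0.17 (SE, limma adjusted p 5.21e-06). In SUM1315 it stood at 38.4, 41.3 and 21.0 with olaparib and 10.6, 7.48 and 9.56 in OlaR, and the OlaR values rest on 7, 4 and 6 reads. The groups did not overlap, and the log2 fold change was −1.71 ± 0.37 (SE, limma adjusted p 2.83e-04). The gene MLYCD overlaps OSGIN1 on the same strand, and reads of the 2 genes are not told apart here beyond their assignment in the table.

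SLC7A11, GCLM, HMOX1 and ME1 rose in OlaR of MDA-MB-468 and fell in that of SUM1315, while GCLC and OSGIN1 fell in both. How far the lines differed was tested as the difference itself, SUM1315 minus MDA-MB-468. Of the 9 genes, 0 were called higher by limma and 6 lower, where 41.7% of the 14460 tested genes were called, 20.3% higher and 21.4% lower, and the median difference was −1.47 beside −0.02. The difference in log2 fold change was −2.33 ± 0.18 (SE, limma adjusted p 1.91e-14) for SLC7A11 and −1.79 ± 0.15 (SE, limma adjusted p 7.43e-14) for ME1. It was −1.71 ± 0.19 (SE, limma adjusted p 3.35e-10) for HMOX1 and −1.65 ± 0.11 (SE, limma adjusted p 1.76e-16) for GCLM. NQO1 had −1.47 ± 0.10 (SE, limma adjusted p 2.95e-16) and TXNRD1 −0.67 ± 0.11 (SE, limma adjusted p 3.09e-06). GCLC and OSGIN1 had differences of −0.04 and −0.74 and SRXN1 one of 0.08, none of them called. Without SUM1315 olaparib replicate 3, OSGIN1 had a difference of −1.04 and was called (limma adjusted p 0.0333). The 6 called differences kept their side in edgeR, DESeq2 and every other alternative run for them. At an unadjusted p under 0.05, 6 of the 9 passed, and edgeR and DESeq2 called 0 higher. Each OlaR was set against its own line's olaparib-treated cells, so the responses to olaparib also enter these differences. Against untreated cells, without a test, mean NQO1 went from 1596 to 3575 in SUM1315 and from 665.5 to 1913 in MDA-MB-468. In the same order TXNRD1 went from 945 to 1605 and 1016 to 1550, and SLC7A11 from 1374 to 664 and 381 to 227. GCLM, HMOX1 and ME1 had lower means in OlaR than untreated in SUM1315 and higher ones in MDA-MB-468.

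**Figure D2:**
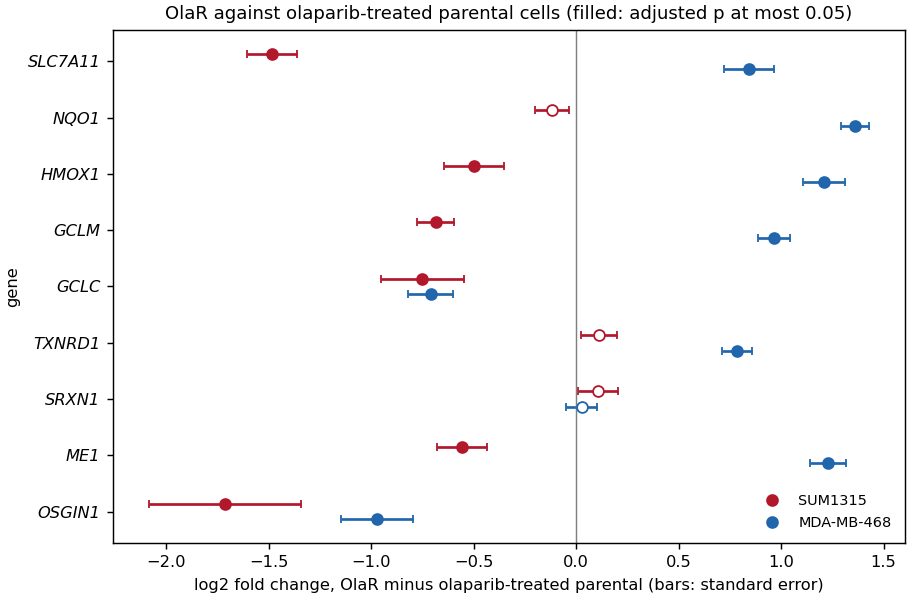
Log2 fold change of OlaR against olaparib-treated parental cells for each of the 9 genes in both lines, with standard errors. NQO1 lies at 1.36 in MDA-MB-468 and −0.12 in SUM1315, and ME1 at 1.23 and −0.56.

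Promoters were read from RefSeq on GRCh38.p14, each from 250 bases before the transcription start to 50 after it. Of the 9 genes, 7 were matched in the promoter table used, with 2 windows for TXNRD1 and 8 in all, and SLC7A11 and HMOX1 were not matched. They were searched on both strands for the core of the antioxidant response element, TGACNNNGC, where N is any base. The core occurred in 3 of the 7 genes, GCLM, TXNRD1 and ME1, and in 4 of the 8 windows, beside 13.3% of all 35116 RefSeq promoters. NQO1, GCLC, SRXN1 and OSGIN1 had 0 matches in the window, and sequence farther from the start was not searched. The ATF4 element TGATGNAA occurred in 0 of the 8 windows and in 3.62% of all promoters. A match is a description of sequence and does not show binding. Capitals mark the matches in the 3 sequences that follow, for GCLM (chr1:93909381-93909680, minus strand), the first TXNRD1 window (chr12:104215529-104215828, plus strand) and ME1 (chr6:83431002-83431301, minus strand), where 1 match overlaps the AP-1 site TGANTCA.

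GCLM: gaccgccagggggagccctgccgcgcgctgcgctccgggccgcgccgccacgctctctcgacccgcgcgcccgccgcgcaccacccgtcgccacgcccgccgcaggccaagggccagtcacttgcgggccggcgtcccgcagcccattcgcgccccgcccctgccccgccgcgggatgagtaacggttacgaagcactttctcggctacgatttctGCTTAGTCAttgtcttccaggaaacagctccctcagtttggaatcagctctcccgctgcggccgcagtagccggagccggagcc

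TXNRD1: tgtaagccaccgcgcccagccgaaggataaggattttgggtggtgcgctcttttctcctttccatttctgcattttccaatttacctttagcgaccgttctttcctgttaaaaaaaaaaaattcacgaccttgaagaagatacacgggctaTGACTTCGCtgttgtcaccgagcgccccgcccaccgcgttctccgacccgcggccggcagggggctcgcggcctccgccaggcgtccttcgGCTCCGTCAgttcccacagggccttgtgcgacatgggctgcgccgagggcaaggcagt

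ME1: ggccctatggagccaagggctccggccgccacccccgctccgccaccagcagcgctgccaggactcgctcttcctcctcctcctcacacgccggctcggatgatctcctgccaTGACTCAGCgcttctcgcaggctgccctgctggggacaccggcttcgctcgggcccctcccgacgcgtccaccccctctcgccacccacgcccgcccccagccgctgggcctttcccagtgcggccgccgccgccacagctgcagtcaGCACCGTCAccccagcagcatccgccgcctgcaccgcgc

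Overnight olaparib alone asks how parental cells answer the drug. In SUM1315, 4 of the 9 genes rose and 1 fell, where 36.0% of the 13133 tested genes were called, 18.9% higher and 17.1% lower, with a median log2 fold change of 0.34 beside 0.00 for all genes. In MDA-MB-468, 1 rose and 2 fell, where 21.5% of the 13012 tested genes were called, 12.4% higher and 9.11% lower, with medians of −0.04 and 0.01.

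SLC7A11 stood at 379, 374 and 390.5 in untreated MDA-MB-468 and 165, 93.7 and 129 with olaparib. The values were 1395, 1679 and 1046 in untreated SUM1315 and 1877, 2005 and 1704 with olaparib. Olaparib libraries were all lower in MDA-MB-468 and all higher in SUM1315, although the untreated libraries of SUM1315 were spread from 1046 to 1679. The log2 fold change was −1.59 ± 0.12 (SE, limma adjusted p 7.15e-15) in MDA-MB-468 and 0.46 ± 0.12 (SE, limma adjusted p 0.00271) in SUM1315. The second of these was lost without untreated replicate 3, at 0.28 (limma adjusted p 0.0558), and in a fit of the compared libraries alone (0.065). The fall in MDA-MB-468 held in every alternative. The lines differed by 2.05 ± 0.18 (SE, limma adjusted p 9.25e-12). GCLM rose in both, from 393, 388 and 424 to 542, 571 and 453 in MDA-MB-468 and from 723, 724 and 822 to 932, 1020 and 926 in SUM1315. Its groups did not overlap, and the log2 fold changes were 0.37 ± 0.08 (SE, limma adjusted p 2.65e-04) and 0.34 ± 0.09 (SE, limma adjusted p 0.00341). GCLC had −0.04 and −0.15, neither called.

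NQO1 in SUM1315 went from 1655, 1761 and 1373 untreated to 3769, 4077 and 3780 with olaparib, more than 2 times higher in each olaparib library than in any untreated one. In MDA-MB-468 it went from 640.1, 727 and 629 to 755, 741 and 739.8, slightly higher in all 3 olaparib libraries. The log2 fold change was 1.29 ± 0.08 (SE, limma adjusted p 6.87e-14) in SUM1315. MDA-MB-468 had 0.17, which was not called with all libraries and was called without untreated replicate 2, at 0.23 (limma adjusted p 0.0217). The lines differed by 1.12 ± 0.10 (SE, limma adjusted p 1.76e-11). HMOX1 fell in MDA-MB-468 from 495, 446 and 400.1 to 267, 269 and 268, with no overlap and a log2 fold change of −0.73 ± 0.10 (SE, limma adjusted p 1.42e-07). In SUM1315 HMOX1 stood at 439, 418 and 591 untreated and 592, 550.4 and 522 with olaparib, overlapping, and was not called. The difference between the lines was 0.94 ± 0.19 (SE, limma adjusted p 2.05e-04).

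TXNRD1 in SUM1315 went from 896, 1046 and 894 to 1430, 1488 and 1545, and SRXN1 went the other way, from 976, 980.0 and 934 to 616, 787 and 611. The groups of each gene were apart, at log2 fold changes of 0.66 ± 0.09 (SE, limma adjusted p 3.26e-07) and −0.53 ± 0.10 (SE, limma adjusted p 6.16e-05). In MDA-MB-468 the log2 fold changes were −0.17 and 0.10 and not called. TXNRD1 was called there by edgeR (adjusted p 0.0406), by DESeq2 (adjusted p 0.0416) and by limma without untreated replicate 3, at −0.23 (adjusted p 0.038). The lines differed by 0.83 ± 0.11 (SE, limma adjusted p 2.51e-07) for TXNRD1 and −0.64 ± 0.12 (SE, limma adjusted p 6.14e-05) for SRXN1. Over the 9 genes, 4 of these differences were called higher in SUM1315 and 1 lower, where 19.9% of the 14460 tested genes were called, 9.99% higher and 9.89% lower, with a median of 0.81 beside −0.02. ME1 and OSGIN1 were called in neither line. OSGIN1 in SUM1315, at 16.0 to 41.3 adjusted reads in these 6 libraries, was called without olaparib replicate 3, at 1.03 (limma adjusted p 0.048), and its difference between the lines, 0.81 and not called, was then 1.11 (limma adjusted p 0.0447). DESeq2 also called that difference (adjusted p 0.0468). The olaparib doses of the lines differ.

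**Figure D3:**
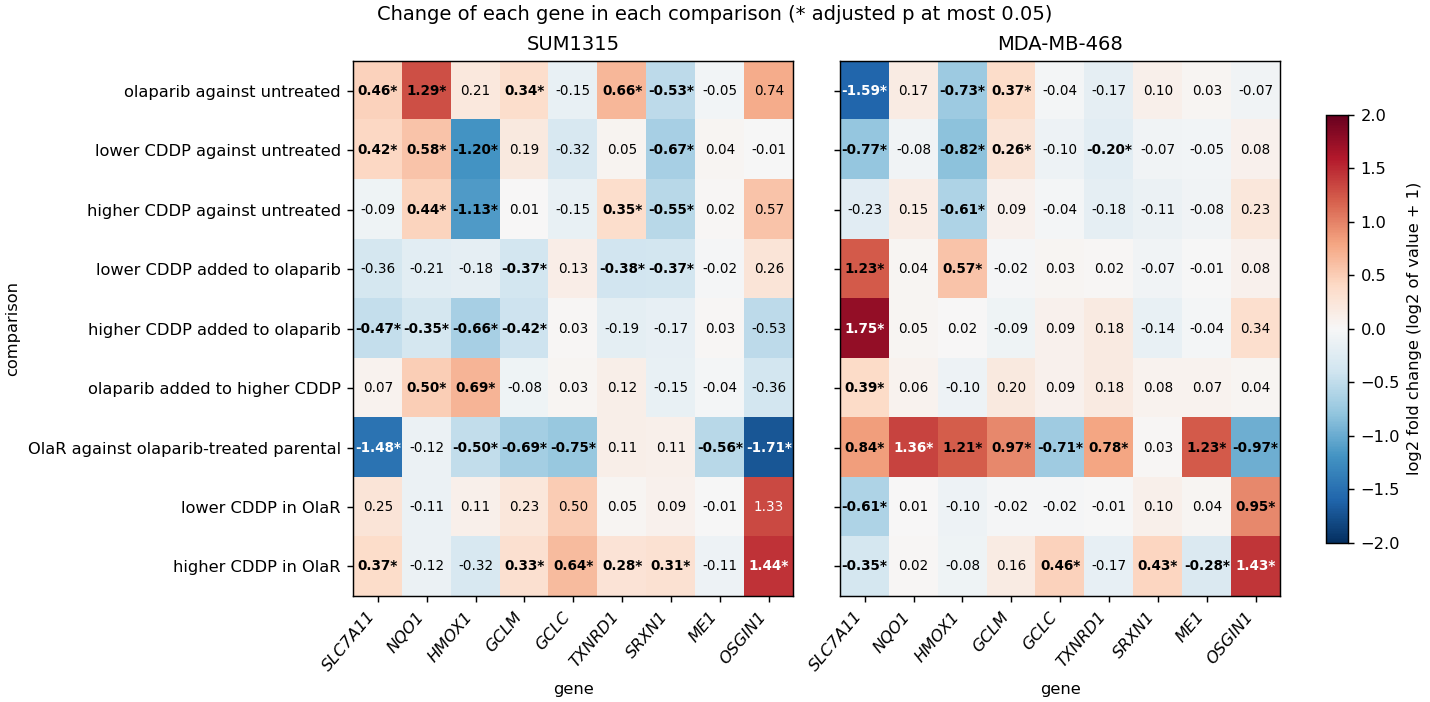
Log2 fold changes of the 9 genes in the comparisons of each line, with called values marked. SLC7A11 in MDA-MB-468 runs from −1.59 with olaparib to 1.75 when the higher CDDP is added to olaparib.

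CDDP alone asks how parental cells answer the platinum drug, and both doses share the untreated libraries with the olaparib comparison. In SUM1315 the lower dose raised 2 of the 9 genes and lowered 2, where 33.9% of the 13133 tested genes were called, 19.4% higher and 14.5% lower, and the higher dose raised 2 and lowered 2, where 43.9% of the 13133 tested genes were called, 22.2% higher and 21.7% lower. The median log2 fold changes were 0.04 and 0.01 beside 0.02 and 0.00 for all genes. In MDA-MB-468 the lower dose raised 1 and lowered 3, where 20% of the 13012 tested genes were called, 10.6% higher and 9.41% lower. The higher dose lowered 1 there, HMOX1, and 0 rose by limma, edgeR or DESeq2, where 25.1% of the 13012 tested genes were called, 13.3% higher and 11.8% lower. The medians were −0.08 and −0.08 beside −0.01 and 0.01, and 3 of the 9 passed an unadjusted p under 0.05 at the higher dose.

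HMOX1 was lowered by every CDDP dose in both lines. With the lower and then the higher dose it stood at 262, 147 and 231 and at 209.6, 224 and 218 in SUM1315, where untreated libraries held 439, 418 and 591. In MDA-MB-468 it stood at 212, 275 and 276 and at 309, 279.7 and 283, where untreated libraries held 495, 446 and 400.1. All 12 CDDP libraries lay below all untreated libraries of their line. SUM1315 had log2 fold changes of −1.20 ± 0.15 (SE, limma adjusted p 9.20e-08) and −1.13 ± 0.15 (SE, limma adjusted p 1.28e-07). In MDA-MB-468 they were −0.82 ± 0.10 (SE, limma adjusted p 1.05e-08) and −0.61 ± 0.10 (SE, limma adjusted p 4.49e-06).

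NQO1 rose in SUM1315, to 2329, 2410 and 2359 with the lower dose and 2071, 2199 and 2198 with the higher one, above all untreated libraries. Its log2 fold changes by dose were 0.58 ± 0.08 (SE, limma adjusted p 1.66e-06) and 0.44 ± 0.08 (SE, limma adjusted p 5.65e-05). SRXN1 fell to 622, 604 and 594 and to 641, 691 and 638, from untreated values of 976, 980.0 and 934. Again neither dose overlapped with untreated cells, at −0.67 ± 0.10 (SE, limma adjusted p 2.40e-06) and −0.55 ± 0.10 (SE, limma adjusted p 2.57e-05). TXNRD1 rose at the higher dose, to 1186, 1133 and 1289, apart from the untreated libraries, by 0.35 ± 0.09 (SE, limma adjusted p 0.00145), and was not called at the lower one. The 2 doses were not tested against each other. MDA-MB-468 had no call for NQO1 or SRXN1 at either dose with all libraries, and NQO1 was called at the higher dose without untreated replicate 2, at 0.21 (limma adjusted p 0.0312).

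The difference between the lines was not tested at the lower dose. There SLC7A11 stood at 204, 245 and 223 in MDA-MB-468, below all 3 untreated libraries, and at 1815, 2060 and 1562 in SUM1315, where the ranges overlapped. The log2 fold changes were −0.77 ± 0.12 (SE, limma adjusted p 3.76e-06) and 0.42 ± 0.12 (SE, limma adjusted p 0.00694). The second was lost without untreated replicate 3 (0.23, limma adjusted p 0.119), without lower-CDDP replicate 2 (0.32, 0.0617) and in a fit of the compared libraries alone (0.121). At the higher dose MDA-MB-468 held 333, 353 and 294 and SUM1315 1234, 1309 and 1271, with log2 fold changes of −0.23 and −0.09, not called. In MDA-MB-468 GCLM rose and TXNRD1 fell at the lower dose, with log2 fold changes of 0.26 ± 0.08 (SE, limma adjusted p 0.0128) and −0.20 ± 0.07 (SE, limma adjusted p 0.0384). Limma no longer called GCLM without untreated replicate 2 (adjusted p 0.0586) or lower-CDDP replicate 2 (0.0732). It no longer called TXNRD1 without untreated replicate 1 (adjusted p 0.178) or 2 (0.112), without lower-CDDP replicate 3 (0.245), without the filter (0.0875) or with the compared libraries alone (0.0624). So 2 of the 4 calls were left without untreated replicate 2. At the higher dose TXNRD1 was the reverse case, called by edgeR (adjusted p 0.0337) and DESeq2 (adjusted p 0.0332) but by limma only without untreated replicate 3 (adjusted p 0.0279) or higher-CDDP replicate 2 (0.0467).

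Tested as a difference between the lines, the response to the higher dose was higher in SUM1315 for 2 of the 9 genes and lower for 2, where 27.5% of the 14460 tested genes were called, 13.7% higher and 13.9% lower, with a median of 0.09 beside −0.03. TXNRD1 differed by 0.53 ± 0.11 (SE, limma adjusted p 2.65e-04) and SRXN1 by −0.44 ± 0.12 (SE, limma adjusted p 0.00339). NQO1 and HMOX1 differed by 0.29 ± 0.10 (SE, limma adjusted p 0.0273) and −0.52 ± 0.19 (SE, limma adjusted p 0.0337). The last pair was fragile. NQO1 lost its call without SUM1315 untreated replicate 3 (0.19, limma adjusted p 0.159), without MDA-MB-468 untreated replicate 2 (0.11), without higher-CDDP replicate 1 of MDA-MB-468 (0.0728) or 2 or 3 of SUM1315 (0.0558 and 0.0566), and with the compared libraries alone (0.114). HMOX1 lost it without SUM1315 untreated replicate 3 (−0.36, limma adjusted p 0.161), without MDA-MB-468 untreated replicate 2 or 3 (0.0518 and 0.101) and without higher-CDDP replicate 1 of MDA-MB-468 (0.0785) or 1 or 3 of SUM1315 (0.0656 and 0.0522).

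CDDP added to olaparib asks what the platinum drug does in parental cells given olaparib together with it, and every value here is set against olaparib alone. In SUM1315, 0 of the 9 genes rose by limma, edgeR or DESeq2 at either dose. The lower dose lowered 3, where 3.76% of the 13133 tested genes were called, 2.09% higher and 1.67% lower, and the higher dose lowered 4, where 8.44% of the 13133 tested genes were called, 4.35% higher and 4.09% lower. The medians were −0.21 and −0.35 beside −0.02 and −0.01. In MDA-MB-468 the lower dose raised 2 and lowered 0, where 5.26% of the 13012 tested genes were called, 2.30% higher and 2.97% lower, and the higher dose raised 1 and lowered 0, where 23.1% of the 13012 tested genes were called, 10.1% higher and 13.1% lower. Medians there were 0.03 and 0.05 beside 0.00 and 0.00, and edgeR and DESeq2 also called 0 lower. At an unadjusted p under 0.05, 5 and 5 of the 9 passed in SUM1315 and 2 and 2 in MDA-MB-468, either direction.

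SLC7A11 in MDA-MB-468 went from 165, 93.7 and 129 with olaparib to 318, 269 and 302 with the lower CDDP added and 412, 438 and 430.2 with the higher. The 3 groups do not overlap, and the last lies above the untreated libraries too. The log2 fold changes were 1.23 ± 0.12 (SE, limma adjusted p 2.16e-10) and 1.75 ± 0.12 (SE, limma adjusted p 1.40e-16). In SUM1315 the higher dose brought it from 1877, 2005 and 1704 to 1380, 1240 and 1398, again apart but downward, with a log2 fold change of −0.47 ± 0.12 (SE, limma adjusted p 0.0106). That call was lost without olaparib replicate 2 (limma adjusted p 0.066) or olaparib with higher-CDDP replicate 2 (0.0679). The lines differed by −2.23 ± 0.18 (SE, limma adjusted p 4.19e-12).

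HMOX1 in MDA-MB-468 rose with the lower dose added, from 267, 269 and 268 to 455, 359.7 and 389, and stood at 279.9, 286 and 248 with the higher one. The first pair is apart, with a log2 fold change of 0.57 ± 0.10 (SE, limma adjusted p 1.00e-04), and the second overlaps and was not called. In SUM1315 the higher dose lowered HMOX1 from 592, 550.4 and 522 to 312, 369 and 373 and NQO1 from 3769, 4077 and 3780 to 3266, 3008 and 2869. The groups were apart, at −0.66 ± 0.15 (SE, limma adjusted p 0.0034) and −0.35 ± 0.08 (SE, limma adjusted p 0.00662). GCLM stood at 728, 745 and 681 there, below all 3 olaparib libraries, with a log2 fold change of −0.42 ± 0.09 (SE, limma adjusted p 0.00316).

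With the lower dose added in SUM1315, GCLM stood at 747, 724 and 754, TXNRD1 at 1184, 1149 and 1104 and SRXN1 at 557, 476 and 514, each below its olaparib libraries. The log2 fold changes were −0.37 ± 0.09 (SE, limma adjusted p 0.0201), −0.38 ± 0.09 (SE, limma adjusted p 0.0126) and −0.37 ± 0.10 (SE, limma adjusted p 0.0272). These 3 calls were weak, and 0 of them were left in a fit of the compared libraries alone (limma adjusted p 0.0551, 0.0515 and 0.149) or without olaparib replicate 2 (0.118, 0.0521 and 0.229). GCLM was also lost without olaparib replicate 1 (limma adjusted p 0.0542) and without replicate 1 (0.0528) or 2 (0.0823) of olaparib with the lower CDDP, and SRXN1 without replicate 2 (0.148) or 3 (0.0643) of that group. In MDA-MB-468 with the higher dose added, edgeR called TXNRD1 as well (adjusted p 0.0426), and limma called OSGIN1 without replicate 3 of olaparib with the higher CDDP, at 0.52 (adjusted p 0.0483).

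Seen from the other side, olaparib added to the higher CDDP raised 2 of the 9 genes in SUM1315 and lowered 0, where 12.8% of the 13133 tested genes were called, 6.32% higher and 6.52% lower, and raised 1 and lowered 0 in MDA-MB-468, where 11.9% of the 13012 tested genes were called, 4.63% higher and 7.29% lower. The medians were 0.03 and 0.08 beside 0.00 and 0.00, and edgeR and DESeq2 called 0 lower in either line. NQO1 stood at 2071, 2199 and 2198 with CDDP alone and 3266, 3008 and 2869 with both drugs in SUM1315. HMOX1 stood at 209.6, 224 and 218 with CDDP alone and 312, 369 and 373 with both. Both were higher in all libraries with olaparib, at 0.50 ± 0.08 (SE, limma adjusted p 8.97e-05) and 0.69 ± 0.15 (SE, limma adjusted p 0.00144). SLC7A11 in MDA-MB-468, at 333, 353 and 294 with CDDP alone and 412, 438 and 430.2 with both, rose by 0.39 ± 0.12 (SE, limma adjusted p 0.0286). This call was lost without CDDP replicate 1 (limma adjusted p 0.0568) or 3 (0.163), without replicate 2 (0.0996) or 3 (0.0824) of both drugs, and without the filter (0.0732), and GCLM was called in its place without replicate 3 of both drugs, at 0.26 (0.0462). At an unadjusted p under 0.05, 2 of the 9 passed in SUM1315 and 3 in MDA-MB-468.

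Whether olaparib changes the response to the higher CDDP was tested as the response with olaparib minus the response without it. In MDA-MB-468, 3 of the 9 differences were called higher and 0 lower by limma, edgeR and DESeq2, where 20.2% of the 13012 tested genes were called, 8.14% higher and 12.0% lower, with medians of 0.11 and 0.00 and 3 at an unadjusted p under 0.05. SLC7A11 had 1.98 ± 0.17 (SE, limma adjusted p 8.57e-13), HMOX1 0.63 ± 0.14 (SE, limma adjusted p 8.07e-04) and TXNRD1 0.36 ± 0.10 (SE, limma adjusted p 0.00881). In SUM1315, 1 was higher and 3 lower, where 21.5% of the 13133 tested genes were called, 9.92% higher and 11.6% lower, with medians of −0.39 and 0.01. NQO1 had −0.79 ± 0.12 (SE, limma adjusted p 6.92e-06) and TXNRD1 −0.54 ± 0.12 (SE, limma adjusted p 0.00166). Each drug alone had raised both genes. GCLM had −0.42 ± 0.13 (SE, limma adjusted p 0.0167), lost without olaparib replicate 2 (0.0514). SRXN1 had 0.38 ± 0.14 (SE, limma adjusted p 0.0461), which passed narrowly and was lost with a replicate block (0.0532), in edgeR (adjusted p 0.0507), without the filter (0.0544) and with the compared libraries alone (0.0715). It was also lost without untreated replicate 1 or 2, olaparib replicate 1 or 3, higher-CDDP replicate 1 or 3, or replicate 2 or 3 of both drugs (limma adjusted p from 0.0719 to 0.125), while SLC7A11 was called without untreated replicate 2, at −0.55 (0.0121).

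Between the lines, the response to the higher CDDP on top of olaparib was lower in SUM1315 for 3 of the 9 genes and higher for 0 by limma, edgeR and DESeq2, where 1.87% of the 14460 tested genes were called, 0.996% higher and 0.871% lower, with a median of −0.36 beside −0.01 and 6 at an unadjusted p under 0.05. SLC7A11 held its difference in every alternative run for it. NQO1 and HMOX1 had −0.39 ± 0.10 (SE, limma adjusted p 0.0269) and −0.68 ± 0.19 (SE, limma adjusted p 0.0451). NQO1 was lost without olaparib replicate 2 or 3 or both-drug replicate 1 or 2 of MDA-MB-468, and without olaparib replicate 2 or both-drug replicate 2 or 3 of SUM1315 (limma adjusted p from 0.0521 to 0.0941). HMOX1 was lost without any olaparib replicate or both-drug replicate 1 or 2 of MDA-MB-468, without olaparib replicate 1 or 2 or any both-drug replicate of SUM1315 (limma adjusted p from 0.0557 to 0.145), and without the filter (0.0745). DESeq2 also called TXNRD1 lower (adjusted p 0.0347).

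CDDP in OlaR cells asks how resistant cells, still in olaparib, answer the platinum drug. With the lower dose, limma called 0 of the 9 genes in SUM1315, where 1.42% of the 13133 tested genes were called, 0.548% higher and 0.876% lower, with a median of 0.11 beside 0.00. At an unadjusted p under 0.05, 4 passed there, and edgeR and DESeq2 called 0. In MDA-MB-468 the lower dose raised 1 and lowered 1, where 4.76% of the 13012 tested genes were called, 1.84% higher and 2.91% lower, with medians of −0.01 and −0.01. With the higher dose 6 rose in SUM1315 and 0 fell by limma, edgeR and DESeq2, where 16.7% of the 13133 tested genes were called, 7.13% higher and 9.61% lower, with medians of 0.31 and 0.00 and 7 at an unadjusted p under 0.05. In MDA-MB-468 the higher dose raised 3 and lowered 2, where 18.7% of the 13012 tested genes were called, 7.43% higher and 11.2% lower, with medians of 0.02 and 0.00.

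OSGIN1 had the largest log2 fold change of the 9 genes at each dose in each line. In MDA-MB-468 it went from 39.7, 39.6 and 51.6 in OlaR to 92.9, 85.2 and 76.9 with the lower and 132, 104 and 122 with the higher dose. The 3 groups stepped up without overlap, at 0.95 ± 0.17 (SE, limma adjusted p 3.89e-04) and 1.43 ± 0.17 (SE, limma adjusted p 9.56e-09). In SUM1315 it went from 10.6, 7.48 and 9.56 to 29.0, 22.1 and 22.6 with the lower and 23.9, 24.7 and 31.3 with the higher dose, each dose apart from OlaR but on few reads. The higher dose gave 1.44 ± 0.37 (SE, limma adjusted p 0.00688) and the lower 1.33, not called (limma adjusted p 0.0614).

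SLC7A11 in MDA-MB-468 went down from 236, 246 and 199.7 in OlaR to 154, 139 and 150.2 with the lower dose and 171, 194 and 170.5 with the higher. Both CDDP groups lay below OlaR, with log2 fold changes of −0.61 ± 0.12 (SE, limma adjusted p 0.00138) and −0.35 ± 0.12 (SE, limma adjusted p 0.0402). The second was not called by edgeR (adjusted p 0.0852) or DESeq2 (adjusted p 0.0838), nor by limma without OlaR replicate 1 (0.123) or 2 (0.167), without replicate 1 (0.122) or 3 (0.126) of OlaR with the higher CDDP, without the filter (0.0889) or with the compared libraries alone (0.053). GCLC rose there from 140.4, 159 and 170.4 to 243, 184 and 222 and SRXN1 from 597, 593 and 575 to 888, 736 and 762, both apart. Their log2 fold changes were 0.46 ± 0.11 (SE, limma adjusted p 0.00147) and 0.43 ± 0.08 (SE, limma adjusted p 2.85e-05). ME1 fell from 723, 783 and 793 to 665, 648 and 576, apart at −0.28 ± 0.09 (SE, limma adjusted p 0.0153), and lost its call without OlaR replicate 2 (0.057) or 3 (0.0644) or without replicate 3 of OlaR with the higher CDDP (0.121), the shallowest of the 54 libraries. So 3 of the 5 calls were left without OlaR replicate 2 or without that library.

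In SUM1315 OlaR the higher dose brought SLC7A11 from 638, 655 and 699.9 to 866, 949 and 764, TXNRD1 from 1659, 1550 and 1605 to 2021, 1943 and 1869 and GCLC from 61.8, 73.7 and 71.5 to 120.0, 124 and 84.3. Their groups were apart and those of GCLM overlapped. The log2 fold changes of SLC7A11, GCLM, GCLC, TXNRD1 and SRXN1 were 0.37, 0.33, 0.64, 0.28 and 0.31, with limma adjusted p from 0.0126 to 0.031. Each of the 5 was lost on leaving out any of 4 of the 6 libraries compared. Without replicate 1 of OlaR with the higher CDDP, OSGIN1 alone of the 6 was called, and the others had limma adjusted p of 0.0858, 0.0567, 0.11, 0.103 and 0.164. Without replicate 2 of that group SLC7A11, GCLM, GCLC and TXNRD1 were lost (0.145, 0.0786, 0.11 and 0.0591). Leaving out OlaR replicate 1 lost SLC7A11, GCLM, GCLC and SRXN1 (0.104, 0.0703, 0.103 and 0.0837), replicate 2 lost SLC7A11, GCLM, TXNRD1 and SRXN1 (0.084, 0.0582, 0.0937 and 0.0624), and replicate 3 lost GCLC, TXNRD1 and SRXN1 (limma adjusted p 0.0511, 0.0634 and 0.0504). GCLM and GCLC were lost in a fit of the compared libraries alone (limma adjusted p 0.0703 and 0.0701) and SLC7A11 without the filter (0.0618). HMOX1, not called at −0.32, was called lower in a fit of the compared libraries alone (limma adjusted p 0.0398).

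The response of OlaR to the higher CDDP minus that of olaparib-treated parental cells was tested within each line. In SUM1315, 5 of the 9 differences were called higher and 0 lower by limma, edgeR and DESeq2, where 6.40% of the 13133 tested genes were called, 1.99% higher and 4.41% lower, with medians of 0.48 and 0.01 and 6 at an unadjusted p under 0.05. SLC7A11 had 0.84 ± 0.17 (SE, limma adjusted p 0.0018) and GCLM 0.74 ± 0.13 (SE, limma adjusted p 3.92e-04), and both held in every alternative run for them. TXNRD1, SRXN1 and OSGIN1 had 0.46, 0.48 and 1.97, and without OlaR replicate 2 all 3 lost their calls (limma adjusted p 0.0512, 0.0569 and 0.0512). TXNRD1 was also lost without replicate 1 of olaparib with the higher CDDP (limma adjusted p 0.0599). SRXN1 was lost without olaparib replicate 2 (0.124), without replicate 1 (0.0781) or 2 (0.0611) of olaparib with the higher CDDP, and without OlaR replicate 1 (0.0697) or replicate 1 of OlaR with the higher CDDP (limma adjusted p 0.0973). OSGIN1 was lost without olaparib replicate 1 (limma adjusted p 0.0523) or 2 (0.0587), without replicate 3 of olaparib with the higher CDDP (0.0824) and without the filter (0.0522). In MDA-MB-468, 2 were higher and 2 lower, where 15.0% of the 13012 tested genes were called, 7.58% higher and 7.47% lower, with medians of −0.03 and −0.02. SLC7A11 had −2.10 ± 0.17 (SE, limma adjusted p 4.05e-13), SRXN1 0.57 ± 0.11 (SE, limma adjusted p 1.20e-04) and OSGIN1 1.09 ± 0.25 (SE, limma adjusted p 0.00117). TXNRD1 had −0.34 ± 0.10 (SE, limma adjusted p 0.0153), lost without replicate 3 of OlaR with the higher CDDP (0.0736). GCLM was called without olaparib replicate 3, at 0.35 (limma adjusted p 0.021), and GCLC without replicate 2 of OlaR with the higher CDDP, at 0.48 (0.0317).

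Between the lines, the response of OlaR to the higher CDDP was higher in SUM1315 for 2 of the 9 genes and lower for 0 by limma, edgeR and DESeq2, where 5.44% of the 14460 tested genes were called, 2.56% higher and 2.88% lower, with a median of 0.16 beside 0.01 and 2 at an unadjusted p under 0.05. SLC7A11 differed by 0.71 ± 0.18 (SE, limma adjusted p 0.0138) and TXNRD1 by 0.45 ± 0.11 (SE, limma adjusted p 0.0121). Without replicate 3 of MDA-MB-468 OlaR with the higher CDDP, TXNRD1 was lost (limma adjusted p 0.0529).

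Over the 9 conditions of a line, several genes fall into 2 blocks by state. NQO1 in MDA-MB-468 had means of 1913, 1922 and 1938 in the 3 OlaR conditions, and the 6 parental means ran from 633 ± 73.8 to 769.9 ± 15.0 (SD, n = 3). Of its 8 steps between neighbouring conditions 7 overlapped, and the gap lay between OlaR and parental cells. ME1 and TXNRD1 placed all OlaR conditions above all parental ones in that line as well. SLC7A11 in MDA-MB-468 had no such block and was ordered, from high to low, as olaparib with higher CDDP, untreated, higher CDDP, olaparib with lower CDDP, OlaR, lower CDDP, OlaR with higher CDDP, OlaR with lower CDDP and olaparib. Of those 8 steps 3 overlapped, and the means ran from 427 ± 13.7 to 129 ± 35.7 (SD, n = 3).

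In SUM1315 the OlaR conditions held the lowest SLC7A11 means, from 664 to 859.9, and the parental ones ran from 1271 to 1862. ME1 was likewise lowest in the 3 OlaR conditions and TXNRD1 highest. NQO1 was ordered by olaparib, with its lowest means in the 3 conditions without the drug, at 1596 ± 201 untreated, 2156 ± 73.5 with higher CDDP and 2366 ± 41.3 with lower CDDP (SD, n = 3). The 6 conditions with olaparib ran from 3048 to 3875. SRXN1 was highest in untreated cells. OSGIN1 had 7 of its 8 steps overlapping, and OlaR, lowest by its mean, did not overlap with untreated cells, the next condition up. The highest OlaR library, at 10.6, lay above the lowest library of olaparib with the higher CDDP, at 10.3.

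The regulators were measured as RNA, which does not report NRF2 protein. NFE2L2 stood at 439 ± 47.8 in olaparib-treated MDA-MB-468 and 653 ± 50.1 in OlaR (SD, n = 3), where untreated cells had 542 ± 36.1, and at 1110 ± 23.9 and 758 ± 36.6 in SUM1315. It rose in the first line and fell in the second, with log2 fold changes of 0.57 ± 0.09 (SE, limma adjusted p 1.15e-06) and −0.55 ± 0.09 (SE, limma adjusted p 5.50e-06). The lines differed by −1.12 ± 0.13 (SE, limma adjusted p 2.26e-09). In MDA-MB-468 olaparib, the lower CDDP and the higher CDDP each lowered NFE2L2 against untreated cells, with log2 fold changes of −0.31 ± 0.09 (SE, limma adjusted p 0.0149), −0.32 ± 0.09 (SE, limma adjusted p 0.0112) and −0.36 ± 0.09 (SE, limma adjusted p 0.00293). Olaparib added to the higher CDDP there raised NFE2L2 by 0.29 ± 0.09 (SE, limma adjusted p 0.0365) and lowered KEAP1, with a log2 fold change of −0.25 ± 0.08 (SE, limma adjusted p 0.0223). The response to the higher CDDP with olaparib minus that without it was 0.59 ± 0.13 (SE, limma adjusted p 7.79e-04) for NFE2L2 and −0.46 ± 0.11 (SE, limma adjusted p 0.00148) for KEAP1. The same difference in SUM1315 was −0.62 ± 0.17 (SE, limma adjusted p 0.00643) for KEAP1 and 0.90 ± 0.30 (SE, limma adjusted p 0.032) for BACH1, and NFE2L2 was not called. BACH1 went from 88.6 ± 17.1 in untreated SUM1315 to 28.9 ± 1.95 with olaparib and 103 ± 13.2 in OlaR. Olaparib lowered it, with a log2 fold change of −1.57 ± 0.21 (SE, limma adjusted p 6.00e-07), as did the lower CDDP, by a log2 fold change of −0.95 ± 0.21 (SE, limma adjusted p 7.49e-04), and olaparib added to the higher CDDP, by one of −0.67 ± 0.21 (SE, limma adjusted p 0.0346). OlaR was higher than olaparib-treated cells by 1.8 ± 0.21 (SE, limma adjusted p 2.61e-08). MDA-MB-468 had BACH1 means between 38.7 and 59.9 and no call. KEAP1 rose with olaparib in SUM1315, to 413 ± 16.3, by 0.36 ± 0.12 (SE, limma adjusted p 0.0147), and was lower in MDA-MB-468 OlaR, at 497 ± 11.7, than with olaparib, at 592 ± 8.60, by a log2 fold change of −0.25 ± 0.08 (SE, limma adjusted p 0.00544). It rose with the higher CDDP, from 322 ± 42.2 to 453 ± 50 in SUM1315 and from 515 ± 40.3 to 665 ± 19.6 in MDA-MB-468, by 0.49 ± 0.12 (SE, limma adjusted p 9.51e-04) and 0.37 ± 0.08 (SE, limma adjusted p 2.19e-04), and with the lower CDDP by 0.50 ± 0.12 (SE, limma adjusted p 0.00108) and 0.30 ± 0.08 (SE, limma adjusted p 0.00296). In MDA-MB-468 OlaR the higher CDDP raised KEAP1 by 0.52 ± 0.08 (SE, limma adjusted p 1.06e-06) and lowered NFE2L2, with a log2 fold change of −0.32 ± 0.09 (SE, limma adjusted p 0.0116). Minus the response in olaparib-treated parental cells these were 0.61 ± 0.11 (SE, limma adjusted p 5.89e-05) and −0.55 ± 0.13 (SE, limma adjusted p 0.00264).

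**Figure D4:**
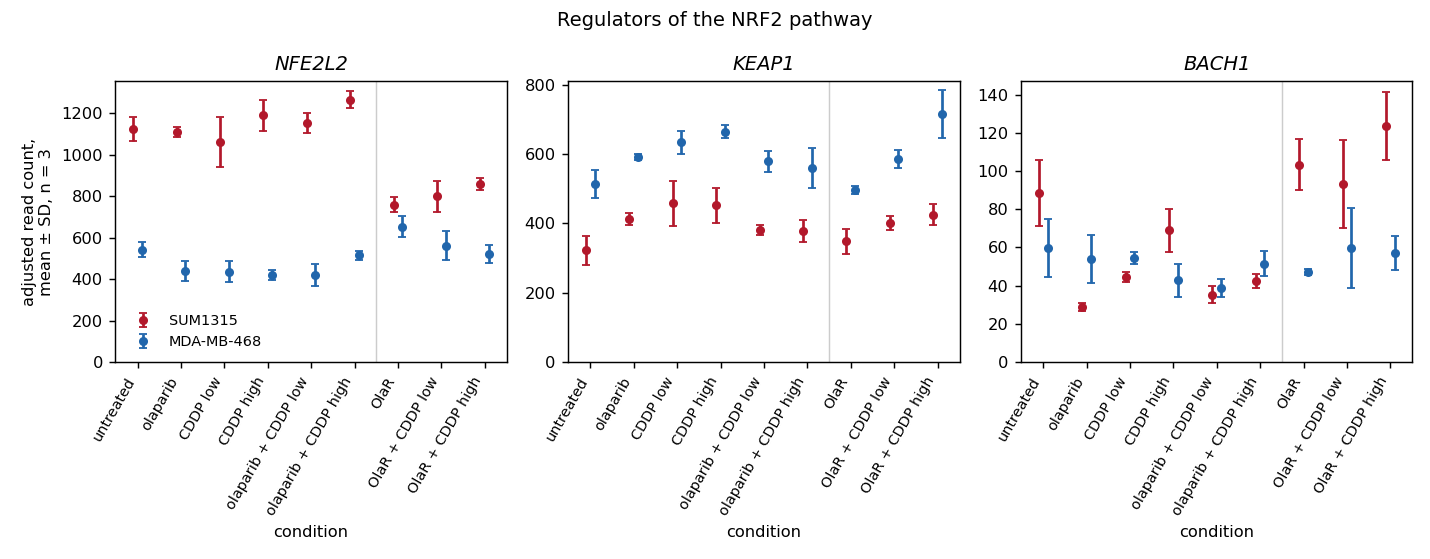
Adjusted read counts of NFE2L2, KEAP1 and BACH1 by condition and line, with points for the mean of 3 libraries and bars for the SD. NFE2L2 has means of 653 in MDA-MB-468 OlaR and 758 in SUM1315 OlaR.

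Lists of related genes were set beside the 9, each with its counts of called genes and its median log2 fold change. The list of ATF4 targets also holds ATF4 itself, and shares CHAC1 with the glutathione cycle and SESN2 with the thioredoxin system. For OlaR against olaparib-treated MDA-MB-468, where 51.5% of all tested genes were called and their median was −0.03, other NRF2 targets had 8 higher and 2 lower of 15 (median 0.55), and AKR1C1 went from 141 to 694. Heme and iron genes had 5 higher and 1 lower of 9 (median 0.32), with FTL from 501 to 1536 and BLVRA lower at a log2 fold change of −1.29. The thioredoxin system had 4 higher and 2 lower of 13 (median 0.03), superoxide and peroxide genes 3 higher and 1 lower of 4 (median 0.51), NADPH supply 2 higher and 3 lower of 8 (median 0.08) and the glutathione cycle 7 higher and 9 lower of 21 (median −0.23). NRF2 regulators had 5 higher and 3 lower of 13 (median −0.09) and ATF4 targets 4 higher and 3 lower of 13 (median 0.13). For the same comparison in SUM1315, where 47.2% of all tested genes were called and their median was −0.05, other NRF2 targets had 1 higher and 7 lower of 15 (median −0.32), with AKR1C3 from 954 to 395, and NADPH supply 5 lower of 8 (median −0.47). The thioredoxin system had 5 higher and 3 lower of 14 (median −0.15), with TXNIP from 6017 to 1004 and TXNRD2 from 85.9 to 269.7, heme and iron genes 2 higher and 1 lower of 9 (median 0.05), the glutathione cycle 5 higher and 7 lower of 20 (median −0.17), superoxide and peroxide genes 2 lower of 4 (median −0.29) and NRF2 regulators 4 higher and 4 lower of 13 (median −0.05). ATF4 targets had 11 lower of 13 (median −1.31), with CHAC1, which breaks down glutathione, from 169 to 27.7.

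For olaparib alone, 36.0% of all tested genes were called in SUM1315, with a median of 0.00, and 21.5% in MDA-MB-468, with a median of 0.01. In SUM1315 the thioredoxin system had 7 higher and 3 lower of 14 (median 0.42), with TXN from 852 to 2500, and the glutathione cycle 11 higher and 3 lower of 20 (median 0.36), with MGST3 from 455 to 1375 and CHAC1 from 547 to 169. NADPH supply had 5 higher and 2 lower of 8 (median 0.57), other NRF2 targets 4 higher and 3 lower of 15 (median 0.23), NRF2 regulators 3 higher and 5 lower of 13 (median −0.01), heme and iron genes 3 higher of 9 (median 0.21) and superoxide and peroxide genes 3 higher of 4 (median 0.80). In MDA-MB-468 the same lists, in this order, had 4 higher and 1 lower of 13 (median 0.16), 6 higher and 2 lower of 21 (median 0.16), 2 higher and 3 lower of 8 (median −0.06), 2 higher and 3 lower of 15 (median −0.22), 2 higher and 2 lower of 13 (median 0.06), 3 higher of 9 (median 0.25) and 2 higher of 4 (median 0.23). There AKR1C2 went from 427 to 223, IDH1 from 786 to 559 and SLC3A2 from 1269 to 626. ATF4 targets had 9 lower of 13 (median −0.71) in SUM1315 and 11 lower of 13 (median −0.74) in MDA-MB-468. SLC7A11 fell with them in MDA-MB-468 and did not in SUM1315. When the higher CDDP was added to olaparib in MDA-MB-468, where 23.1% of all tested genes were called at a median of 0.00, ATF4 targets had 8 higher and 1 lower of 13 (median 0.75), with CHAC1 from 48.6 to 350.0, and SLC7A11 rose. With the higher CDDP added to olaparib in SUM1315, where 8.44% were called, ATF4 targets had 4 higher and 1 lower of 13 (median 0.19), with DDIT3 from 59.8 to 179.8 and ATF3 from 67.6 to 165, while SLC7A11 fell. With the higher CDDP in MDA-MB-468 OlaR, where 18.7% were called, they had 3 higher and 2 lower of 13 (median 0.06), with ATF3 from 71.1 to 136 and CHAC1 from 72.7 to 103, while SLC7A11 fell. With the higher CDDP in SUM1315 OlaR, where 16.7% were called, CHAC1 went from 27.72 to 97.45 and ATF3 from 78.19 to 175.2. SLC7A11 rose there, in the fragile call described above, and the other members of the list are not given for that comparison.

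For the gene of each line whose condition means spanned most, the 3 genes with the most similar profile were found by Pearson correlation over the 9 condition means of log2(value + 1), among genes with a mean of at least 20 that spanned at least 1 log2 unit. SLC7A11 spanned most in MDA-MB-468, and among 3341 genes compared STC2 had an r of 0.944, DYRK1B 0.924 and CHAC1 0.92. STC2 had means of 824, 252 and 769 in untreated, olaparib-treated and olaparib with higher-CDDP cells. In SUM1315 it was OSGIN1, and among 5391 genes SLC25A51 had an r of 0.899, AKAP9 0.862 and ZNF224 0.841. The OSGIN1 profile rests on 4 to 48 reads per library.

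**Figure D5:**
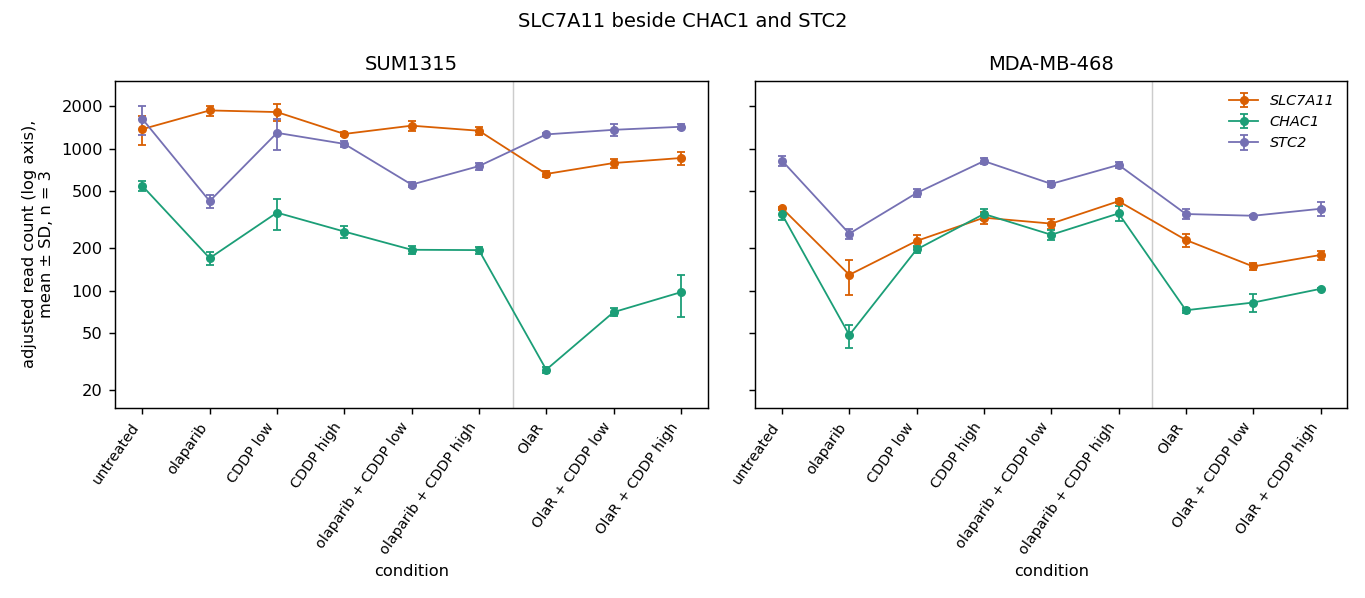
Condition means ± SD (n = 3) of SLC7A11, CHAC1 and STC2 over the 9 conditions of each line, on a log axis of adjusted read counts. In MDA-MB-468 SLC7A11, CHAC1 and STC2 are each lower with olaparib than untreated, and STC2 goes from 824 to 252.

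Some limits follow from the data. Each condition has 3 libraries, and the labels name 1 OlaR derivative per line, so resistance cannot be told apart from what is particular to that derivative. Doses differ between the lines. The libraries were multiplexed in batches of 27 and the labels do not say which shared a batch, so levels of the lines were not compared by a test. Other genes overlap SLC7A11, NQO1, GCLC, SRXN1 and OSGIN1 in the annotation, and the strand setting of the read counting is not given in the sources used here. Protein, glutathione and NRF2 binding were not analysed here.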

How the data were processed

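The study's notes list CASAVA 1.8.2 for base calls, FastQC, STAR on hg38, HTSeq and edgeR. The signal values in the deposited table are edgeR pseudo-counts, which the authors made from HTSeq counts before deposit by scaling to a common library size, 5585170 by these data, and are called adjusted read counts here. Whole reads recovered from them gave back all 1483380 values within 1e-05. Names turned into dates (27) and repeated names (2) include none of the 9 genes. Limma 3.58.1 with an intensity trend tested log2(value + 1) for genes that reached 10 adjusted reads in 3 or more libraries, with Benjamini-Hochberg adjustment over all genes tested. A gene was called at an adjusted p of at most 0.05. R 4.3.3, edgeR 4.0.16, DESeq2 1.42.0, Python 3.11.15 and GENCODE 44 were used. The genes and lists (NRF2 regulators, other NRF2 targets, NADPH supply, glutathione cycle, thioredoxin system, heme and iron, superoxide and peroxide, ATF4 targets) were chosen with earlier results of these data known. From each list at most the 2 called genes with the largest log2 fold change among those with a mean of at least 20 and no overlap of libraries could be named.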

Additional observations from a re-analysis of the deposited data

Results flagged for a closer look

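The results here are responses that differed between lines or between states of a line, each by a limma test of the difference itself, given as differences in log2 fold change.

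Within SUM1315, the response to the higher CDDP in OlaR minus that in olaparib-treated parental cells was 0.84 for SLC7A11, 0.74 for GCLM, 0.46 for TXNRD1, 0.48 for SRXN1 and 1.97 for OSGIN1. The response with olaparib minus that without it was −0.79 for NQO1, −0.42 for GCLM, −0.54 for TXNRD1 and 0.38 for SRXN1, the last lost with a replicate block (limma adjusted p 0.0532), in edgeR (adjusted p 0.0507), without the filter, with the compared libraries alone and on leaving out any 1 of 8 libraries. In the first of these differences the SRXN1 call was lost on leaving out any 1 of 6 libraries, that of OSGIN1 with any 1 of 4 or without the filter and that of TXNRD1 with either of 2. The GCLM call in the second was lost without olaparib replicate 2 (limma adjusted p 0.0514). Within MDA-MB-468 the first of these differences was −2.10 for SLC7A11, −0.34 for TXNRD1, 0.57 for SRXN1 and 1.09 for OSGIN1. The second was 1.98 for SLC7A11, 0.63 for HMOX1 and 0.36 for TXNRD1. The TXNRD1 value of −0.34 was no longer called without the third library of OlaR given the higher CDDP (limma adjusted p 0.0736).

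Between the lines, as SUM1315 minus MDA-MB-468, the response to olaparib differed by 2.05 for SLC7A11, 1.12 for NQO1, 0.94 for HMOX1, 0.83 for TXNRD1 and −0.64 for SRXN1. The response to the higher CDDP differed by 0.29 for NQO1, −0.52 for HMOX1, 0.53 for TXNRD1 and −0.44 for SRXN1. With the higher CDDP added to olaparib it differed by −2.23 for SLC7A11, −0.39 for NQO1 and −0.68 for HMOX1. OlaR against olaparib-treated cells differed by −2.33 for SLC7A11, −1.47 for NQO1, −1.71 for HMOX1, −1.65 for GCLM, −0.67 for TXNRD1 and −1.79 for ME1. The response of OlaR to the higher CDDP differed by 0.71 for SLC7A11 and 0.45 for TXNRD1, the latter lost without the third library of MDA-MB-468 OlaR given the higher CDDP (limma adjusted p 0.0529). The NQO1 and HMOX1 calls for the higher CDDP were lost on leaving out any 1 of 5 and of 6 libraries, and those for the higher CDDP added to olaparib with any 1 of 7 and of 10. The first NQO1 call was also lost with the compared libraries alone, and the second HMOX1 call without the filter. The causes of these differences were not tested.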

How the results depend on the processing

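Of 243 results, each of the 9 genes in each of 27 comparisons, 97 were called. Of these, 70 kept their call in every alternative run for them other than the limit on fold, 27 lost it in at least 1, and 15 results gained a call in at least 1. In 0 of the 243 did a called direction reverse. The count of called genes stayed within 1.5 times its value in 16 of the 27 comparisons under every alternative but that limit. Levels given as the recovered reads scaled by library total (CPM) lay within 1 SD in 130 of 162 cases, with the same highest condition in 15 of 18 orders and the same lowest in 17.

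The limit that a called gene also change at least 2-fold was run for the comparisons within a line and not for the tests of a difference, and it lowered the counts most, by its construction. In SUM1315 it left 1 of 5 called genes with olaparib, 1 of 4 with the lower CDDP, 1 of 4 with the higher CDDP, 0 of 3 with the lower and 0 of 4 with the higher CDDP added to olaparib, 0 of 2 with olaparib added to CDDP, 2 of 6 in OlaR and 1 of 6 with the higher CDDP in OlaR. In MDA-MB-468 it left 1 of 3 with olaparib, 0 of 4 with the lower CDDP, 0 of 1 with the higher CDDP, 1 of 2 with the lower CDDP added to olaparib, 0 of 1 with olaparib added to CDDP, 3 of 8 in OlaR, 0 of 2 with the lower and 1 of 5 with the higher CDDP in OlaR.

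Fitting the compared libraries alone, which leaves fewer libraries to estimate the spread, left 0 of 3 for the lower CDDP added to olaparib in SUM1315. Without the filter, which adds genes to the adjustment, MDA-MB-468 had 0 called in place of 1 for olaparib on top of CDDP. EdgeR called 2 in place of 1 with the higher CDDP in MDA-MB-468 and 2 in place of 1 with the higher CDDP added to olaparib there. DESeq2 called 2 in place of 1 with the higher CDDP in that line. A replicate block, which pairs libraries by replicate number, ended 1 call, that of SRXN1 in the test of whether olaparib changes the response to CDDP in SUM1315 (limma adjusted p 0.0532). Pseudocount 5 changed 0 of the 243. The cause of these changes was not tested beyond what each alternative alters.

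With any 1 library left out, 0 to 3 genes were called for the lower CDDP added to olaparib in SUM1315, 1 to 6 for the higher CDDP in OlaR and 2 to 5 for its difference from the parental response. In MDA-MB-468 the ranges were 2 to 4 with the lower CDDP, 1 to 2 with the higher CDDP, 1 to 2 with the higher CDDP added to olaparib, 0 to 1 with olaparib added to CDDP and 3 to 5 with the higher CDDP in OlaR. Between the lines they were 2 to 4 with the higher CDDP, 1 to 3 with it added to olaparib and 1 to 2 with it in OlaR. The lone pair left in a condition was assumed to vary like the other conditions. Depth limits OSGIN1 most, with 4 to 48 reads per library in SUM1315.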

Other observations

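Libraries with the same replicate number in different conditions were no more alike than others. The correlation between same-numbered libraries, after each condition's mean was removed, ran from −0.098 to 0.163 in SUM1315 and from −0.047 to 0.043 in MDA-MB-468, with medians of −0.0024 and −0.0047, so the numbers were not used to pair libraries. None of the 54 pairs of libraries of the same condition was identical.

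The antisense gene SLC7A11-AS1, which overlaps SLC7A11 on the opposite strand, had 0 to 59 reads per library in SUM1315 and 0 to 8 in MDA-MB-468, beside 377 to 2568 and 64 to 654 of SLC7A11. MLYCD, which overlaps OSGIN1 on the same strand, had 37 to 211 reads per library in SUM1315 and 52 to 341 in MDA-MB-468, more than the 4 to 48 and 32 to 186 of OSGIN1.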
